A study of Mus musculus with 8 samples.

Results

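SOX proteins are transcription factors that bind DNA through a high-mobility-group (HMG) box, and SRY, the Y-linked switch for testis development, is one of them. The SOXC group holds Sox4, Sox11 and Sox12, intronless genes whose proteins activate transcription and which are known from embryonic progenitors of nerve and mesenchyme. Sox4 has also been linked to the shaping of the mouse gonad. The SOXD group holds Sox5, Sox6 and Sox13, whose proteins pair through a coiled coil, carry no activation domain of their own and act with partner factors. Sox5 and Sox6 are best known as partners of SOX9 in cartilage, and Sox13 is known from gamma-delta T cells. These 6 genes were followed here by gene name among the 48440 genes of the deposited tables, and all 6 were found.

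Polyadenylated RNA was sequenced from whole mouse gonads of embryonic day 11.5, a stage at which XY gonads express Sry. The groups were XY wildtype, XY Kdm6b-null, XX wildtype and XX Kdm6b-null, with 2 libraries each and 2 pairs of gonads pooled per library. Kdm6b encodes a demethylase that removes a repressive mark from histone H3, and the null genotype is given without its allele or the part of the gene it lacks. The sources used here name no strain. All p-values therefore measure the spread between such pools, which the labels do not tie to separate litters.

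Each library held 19107103 to 19828638 counts on genes. Kdm6b itself averaged 34.6% of wildtype in XY null and 47.4% in XX null libraries. The labels name pre-Sertoli cells for XY and pre-granulosa cells for XX, yet markers of other cells had large counts in every library. Summed normalized counts ran from 11328 to 19521 for endothelial markers and from 59719 to 240823 for erythroid markers. Macrophage markers summed to 2139 to 2877 and gonadal somatic markers to 10097 to 17506. The values are therefore those of mixed tissue. In such tissue fewer cells of a type and less RNA per cell cannot be told apart. The 2 XX wildtype libraries stood apart, with a correlation of their log2 values of 0.962 against 0.9796 to 0.9851 for the other replicate pairs, and mitochondrial genes took 3.12% and 2.55% of their values against 1.90 to 2.22% elsewhere. The XX values of the 6 genes and the medians of the SOX, target, endothelial and gonadal lists are therefore given below with and without each of them. Single genes outside the 6, the other marker lists and the authors' calls are not. The XX and XY tables were normalized separately by the authors, and levels of both are set side by side below, with no test of levels between the sexes.

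The DNA that encodes the start of the HMG box shows what the 6 genes share, and in it the groups part most clearly when set against Sox4. The 60-base in-frame stretch of Sox4 with the highest summed identity to the best match in each other member is printed, with those matches, from the GENCODE M21 transcripts, with capitals at the 37 bases that all 6 share.
Sox4: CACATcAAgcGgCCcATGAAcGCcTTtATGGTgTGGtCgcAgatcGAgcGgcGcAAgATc
Sox11: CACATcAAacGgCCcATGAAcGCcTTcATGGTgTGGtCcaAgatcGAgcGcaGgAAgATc
Sox12: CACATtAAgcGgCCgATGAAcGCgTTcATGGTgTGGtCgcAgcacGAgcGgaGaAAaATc
Sox5: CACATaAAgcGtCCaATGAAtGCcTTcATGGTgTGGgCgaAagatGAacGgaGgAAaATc
Sox6: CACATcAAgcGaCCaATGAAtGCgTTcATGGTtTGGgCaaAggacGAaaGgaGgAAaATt
Sox13: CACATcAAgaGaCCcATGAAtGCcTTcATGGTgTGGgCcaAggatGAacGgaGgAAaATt
The stretch begins at base 172 of the Sox4 coding sequence and at base 1243 of that of Sox13. Sox11 shared 53 of the 60 bases with Sox4 and Sox12 shared 51, whereas Sox5, Sox6 and Sox13 shared 45, 43 and 45. Within SOXD, Sox13 shared 53 with both Sox5 and Sox6. Sox11 and Sox12 shared 49, barely more than the 48 that Sox12 shared with Sox5 and Sox11 with Sox13. Over whole transcripts the longest identical run between any pair of members was 48 bases, between Sox4 and Sox11, and it was 13 to 33 bases in the other 14 pairs. No pair thus held an identical run as long as a 100-base read.

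All 6 genes lie on the minus strand of GRCm38, on 6 chromosomes, and the spans in the deposited tables equal those of GENCODE M21. Sox4 (ENSMUSG00000076431.4) lies on chromosome 13 at 28948919 to 28953713, Sox11 (ENSMUSG00000063632.6) on chromosome 12 at 27334264 to 27342574, and Sox12 (ENSMUSG00000051817.8) on chromosome 2 at 152393611 to 152398063, each with a single exon. Sox5 (ENSMUSG00000041540.16) spans chromosome 6 from 143828425 to 144781977, and Sox6 (ENSMUSG00000051910.13) spans chromosome 7 from 115470872 to 116038796. Sox13 (ENSMUSG00000070643.11) lies on chromosome 1 at 133382303 to 133424377. Among the genes tabulated, 10 overlap a member, 1 at Sox4, 7 at Sox5 and 2 at Sox6. The libraries kept strand (dUTP second strand), and whether counting used it is not stated. The highest value of any of them in any library was 6.83 normalized counts, for Sox6os.

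SOXC transcripts were far more abundant than SOXD transcripts in every library. In counts per 1000000 counts and per kb of exon, Sox12 had a median of 50.77 over the 8 libraries (37.5 to 53.7), Sox11 37.3 (22.7 to 42.9) and Sox4 37.3 (24.8 to 43.8). The ranges of Sox11 and Sox4 overlapped almost fully, so these neighbours did not differ beyond their spread. Sox13 followed with 13.9 (9.60 to 15.9), then Sox6 with 2.14 (1.71 to 2.63) and Sox5 with 1.56 (1.15 to 1.66). The ranges of Sox6 and Sox5 did not overlap. Exon lengths of Sox5 and Sox6 are the union over 14 and 16 annotated transcripts, 14.376 and 14.832 kb, so a shorter transcript in use would raise their per-kb level. Counting error alone was 1.20 to 2.10% for the SOXC genes and 2.71 to 5.63% for the SOXD genes in a single library, and it leaves out error from amplification.

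**Figure D1:**
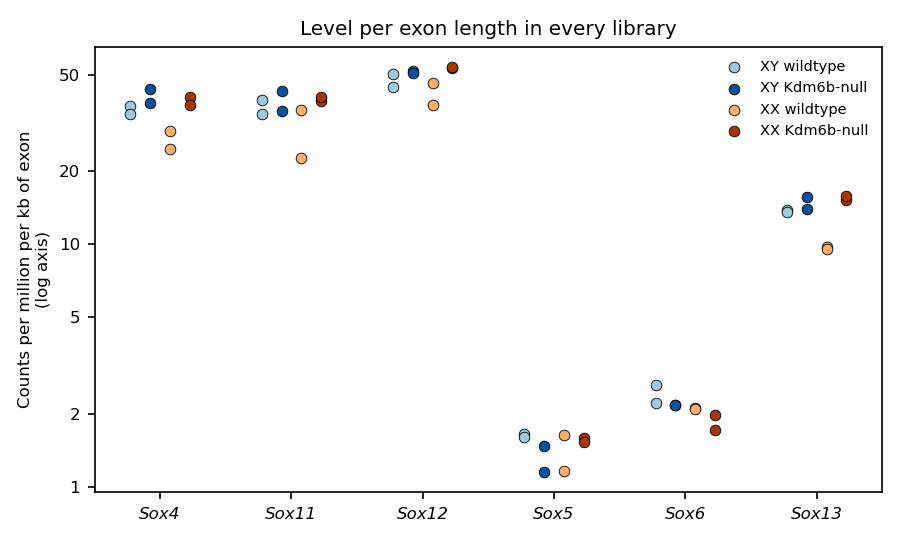
Level of each SOXC and SOXD gene in counts per 1000000 and per kb of exon (log axis), 1 point per library, coloured by group. The 3 SOXC genes lie between 22.7 and 53.7, Sox13 between 9.60 and 15.9, and Sox6 and Sox5 between 1.15 and 2.63.

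The first comparison asks how loss of Kdm6b bears on these genes in XX gonads, which lack Sry. Sox13 and all 3 SOXC genes were higher in both XX null libraries than in either XX wildtype library, as were 27.0% of all genes tested. By the authors' deposited table Sox13 and Sox4 rose, among the 1.95% of genes it called higher. Sox6 was slightly lower and Sox5 overlapped. By limma none of the 6 passed the adjusted threshold of 0.05. The targeted gene Kdm6b did not pass by limma either (limma adjusted p = 0.19 in XX and 0.12 in XY). In the authors' deposited table it did (DESeq2 adjusted p = 7.1e-07 in XX and 8.2e-25 in XY). A gene that did not pass by limma is therefore not shown to be unchanged.

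Sox13 gave the widest separation. It had 781 and 805.2 normalized counts in the XX wildtype libraries and 1295 and 1372 in the XX null libraries, or 793.1 ± 17.1 against 1334 ± 54.1 (SD, n = 2 each). Both null libraries stood well above both wildtype libraries, which were nearly equal. The limma log2 fold change was 0.75 (SE 0.10, 95% interval 0.51 to 0.99, limma adjusted p = 0.19), a 1.68-fold difference that exceeded those of 98.0% of the 17028 genes tested. The authors' deposited table gave a DESeq2 log2 fold change of 0.75 with an adjusted p of 0.00029. Leaving out each library in turn gave 0.71 to 0.79, so the size did not rest on either of the XX wildtype libraries.

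Sox4 had 2202 and 2723 normalized counts in XX wildtype and 3834 and 3604 in XX null libraries (2463 ± 368 and 3719 ± 163, SD, n = 2 each). The null libraries lay above the wildtype range by more than the gap within either group. Its limma log2 fold change was 0.60 (SE 0.13, 95% interval 0.27 to 0.93, limma adjusted p = 0.26). The authors' deposited table gave 0.59 with a DESeq2 adjusted p of 0.012. Without XX wildtype replicate 1 the limma value was 0.45, and without replicate 2 it was 0.75.

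The other SOXC genes leaned on 1 wildtype library. Sox11 had 3503 and 5793 normalized counts in XX wildtype and 6369 and 6757 in XX null libraries, a log2 fold change of 0.54 (SE 0.24, limma adjusted p = 0.39). Replicate 2 of the wildtype lay close to the null libraries and replicate 1 far below, so that the value was 0.18 without replicate 1 and 0.90 without replicate 2. Sox12 had 3097 and 3996 in XX wildtype and 4689 and 4791 in XX null libraries, a log2 fold change of 0.43 (SE 0.15, limma adjusted p = 0.32). It was 0.25 without XX wildtype replicate 1 and 0.61 without replicate 2. The authors' deposited table called neither, with DESeq2 adjusted p of 0.27 for Sox11 and 0.16 for Sox12. Summed, the SOXC genes had 8802 and 12511 normalized counts in XX wildtype and 14891 and 15151 in XX null libraries.

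The long SOXD genes, Sox5 and Sox6, had smaller XX estimates than Sox13, a difference between genes that was not tested. Sox5 had 310.5 and 457.2 normalized counts in XX wildtype and 452.4 and 439.5 in XX null libraries, so the groups overlapped (log2 fold change 0.24, SE 0.20, 95% interval -0.27 to 0.76). Sox5 had a value of -0.04 without XX wildtype replicate 1 and 0.52 without replicate 2, where it passed (limma adjusted p = 0.028). Sox6 had 580.2 and 602.9 in XX wildtype and 577 and 509.2 in XX null libraries, a log2 fold change of -0.13 (SE 0.12, 95% interval -0.42 to 0.17). It was -0.15 without XX wildtype replicate 1, -0.098 without replicate 2, -0.22 without null replicate 1 and -0.036 without null replicate 2. Both null values were below both wildtype values, the higher by less than the counting error of 3.63 to 4.45% of a Sox6 value.

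Many other genes were also higher in both XX null libraries. The XX log2 fold changes of Sox4, Sox11 and Sox12 exceeded those of 96.3, 95.4 and 91.9% of the genes tested. Those of Sox5 and Sox6 exceeded 79.3 and 33.8%. Both null libraries were above both wildtype libraries for 4 of the 6 members and for 27.0% of all genes tested, and below for 1 member and 22.5% of all. An unadjusted limma p under 0.05 on the higher side was reached by 3 members (Sox13, Sox4 and Sox12) and by 9.34% of all genes, and on the lower side by no member and 4.65% of all. Limma called 0 of 17028 genes after adjustment, while 2383 had an unadjusted p under 0.05. The authors' deposited table called 2.77% of 14704 genes, 1.95% higher with Sox13 and Sox4 among them and 0.823% lower with no member. The log2 fold change was above 0 for 5 members and 50.1% of all genes and below 0 for 1 member and 49.9% of all, with a median of 0.49 over the members and 0.00 over all genes. The members' median was 0.21 with 4 of 6 higher without XX wildtype replicate 1 and 0.68 with 5 of 6 higher without replicate 2. When libraries were rescaled to the same upper quartile the median of all genes fell to -0.11, and Sox13 was at 0.63, Sox4 at 0.49, Sox11 at 0.43 and Sox12 at 0.32.

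**Figure D2:**
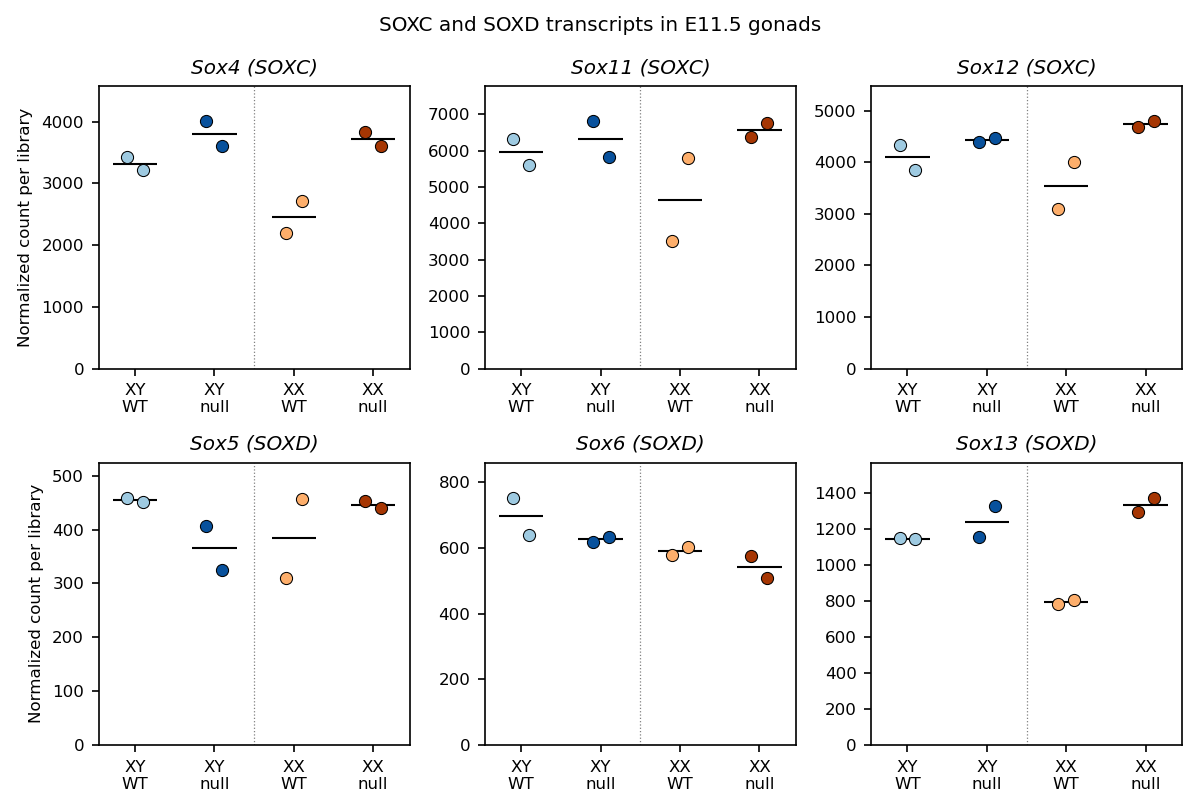
Normalized counts of the 6 genes in each library (points) with the group mean (line), XY and XX being normalized separately. Sox13 separates the XX groups most widely, at 781 and 805.2 against 1295 and 1372, while in XY the Sox13 groups lie at 1148 and 1141 against 1154 and 1327.

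The second comparison asks the same of XY gonads as testis determination begins. None of the 6 genes passed by limma or in the authors' deposited table, and every log2 fold change lay between -0.32 and 0.20. Sox4 had 3422 and 3218 normalized counts in XY wildtype and 4008 and 3606 in XY null libraries, a log2 fold change of 0.20 (SE 0.09, 95% interval -0.02 to 0.41). It was 0.12 without XY null replicate 1 and 0.27 without XY null replicate 2. Sox13 had 1148 and 1141 in XY wildtype and 1154 and 1327 in XY null libraries (0.11, SE 0.09, 95% interval -0.12 to 0.35). Its value was 0.21 without XY null replicate 1 and 0.012 without XY null replicate 2. For both genes the null libraries were above the wildtype libraries, for Sox13 by a margin within counting error in replicate 1.

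Sox12 had 4328 and 3852 normalized counts in XY wildtype and 4394 and 4474 in XY null libraries (log2 fold change 0.12, SE 0.08). Its lower null value exceeded its higher wildtype value by about the counting error, and the estimate was 0.20 without XY wildtype replicate 1 and 0.035 without replicate 2. Sox11 had 6323 and 5592 in XY wildtype and 6808 and 5816 in XY null libraries, so these groups overlapped (0.08, SE 0.11, and -0.03 without XY null replicate 1). The upper limits of the 95% intervals in XY were 0.33 for Sox12 and 0.36 for Sox11. Sox5 was the lowest member in XY, with 459 and 450.6 normalized counts in wildtype and 406.8 and 325.3 in null libraries. Its log2 fold change was -0.32 (SE 0.14, 95% interval -0.67 to 0.03, limma adjusted p = 0.999). It was -0.48 without XY null replicate 1 and -0.16 without XY null replicate 2. Sox6 had 752.8 and 640 in wildtype and 619.4 and 634.1 in null libraries (-0.15, SE 0.11), and replicate 2 of the wildtype was within counting error of the null. The Sox6 estimate was -0.030 without XY wildtype replicate 1 and -0.26 without replicate 2.

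In XY both null libraries were above both wildtype libraries for 3 members (Sox4, Sox12 and Sox13) and for 16.6% of all genes tested, and below for 2 members (Sox5 and Sox6) and 16.3% of all. No member was among the 2.11% of genes with an unadjusted limma p under 0.05 on the higher side or the 2.85% on the lower side. Limma called 0 of 16821 genes after adjustment, with 834 at an unadjusted p under 0.05, and the authors' deposited table called 0.402% of 17890 genes, 0.123% higher and 0.279% lower, and no member. The log2 fold change was above 0 for 4 members and below 0 for 2, with all genes split evenly (8407 above and 8414 below), with a median of 0.10 over the members and 0.00 over all genes. The members' median was 0.014 with 3 of 6 higher without XY wildtype replicate 2 and 0.044 with 3 of 6 higher without XY null replicate 1. Gonadal somatic markers were lowest in XY null replicate 1, at a median of -1.002 relative to wildtype, and erythroid markers highest in XY null replicate 2, at 1.27. Their part in the XY values was not tested.

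**Figure D3:**
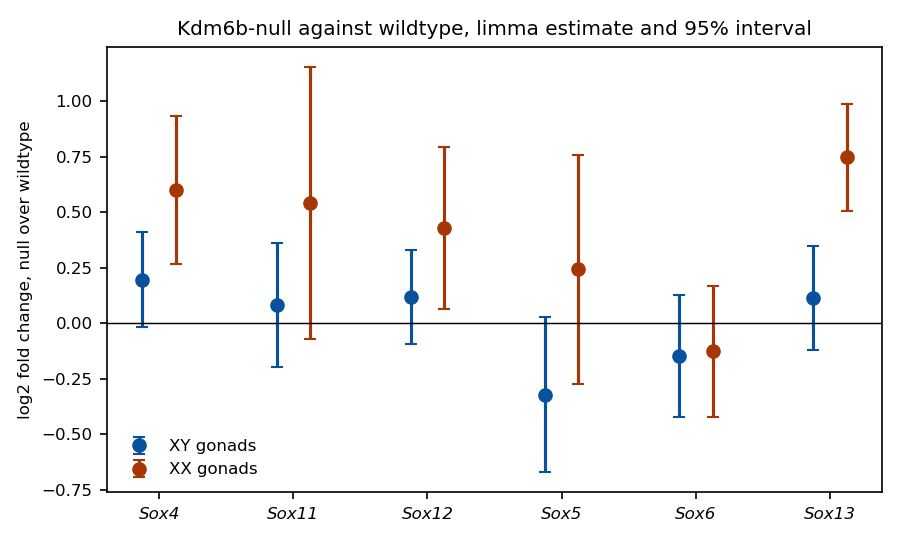
Log2 fold change of Kdm6b-null over wildtype for each gene in XY and XX gonads, limma estimate with its 95% interval. In XX the intervals of Sox13, Sox4 and Sox12 lie above 0, and in XY all 6 intervals include 0.

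The XY and XX effects were then tested against each other. For 5 of the 6 genes the XY effect was lower than the XX effect by 0.31 to 0.64 on the log2 scale, and for Sox6 the difference was -0.02. Sox13 had the largest difference at -0.64 (SE 0.13, 95% interval -0.94 to -0.33, limma adjusted p = 0.57). For Sox4 it was -0.41 (SE 0.17, 95% interval -0.79 to -0.02, limma adjusted p = 0.59). Sox13 and Sox4 were thus among the 5.71% of 16943 genes with an unadjusted limma p under 0.05 in that direction, no member was among the 2.7% in the other, and no gene passed after adjustment, so a difference between the sexes was not established for any member. For Sox5 the difference was -0.56 (SE 0.27), from a negative value in XY and a positive one in XX. Without XX wildtype replicate 1 the difference was -0.25 for Sox4, -0.29 for Sox5, -0.13 for Sox12 and -0.10 for Sox11. Without XX wildtype replicate 2 it was -0.56, -0.84, -0.49 and -0.82 for the same genes, with limma adjusted p of 0.063 to 0.087. For Sox6 it was 0.0060 and -0.049 in turn, while that of Sox13 stayed between -0.74 and -0.54 whichever library was left out.

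Set on 1 scale as counts per 1000000, Sox13 averaged 59.1 ± 0.648 in XY wildtype, 63.9 ± 4.98 in XY null, 41.7 ± 0.506 in XX wildtype and 67.1 ± 1.96 in XX null libraries (SD, n = 2 each). The XX wildtype group was the low one, and the XX null libraries reached the level of the XY groups. Sox4 had the same order at its low end, with 129 ± 15 in XX wildtype and 171 ± 8.68, 197 ± 18.8 and 187 ± 10.3 in XY wildtype, XY null and XX null libraries. The last 3 Sox4 groups differed by little more than their spread. Sox6, in contrast, was lowest in XX null libraries (27.3 ± 2.72) and highest in XY wildtype (36 ± 4.38). Differences in level between the sexes were not tested.

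Median log2 fold changes in XX were above 0 for the endothelial, gonadal, mesonephros and interstitial lists. They were below 0 for the neuron, germ cell, erythroid and macrophage lists. All 8 endothelial markers had positive log2 fold changes in XX, with a median of 0.44, and their summed level was 11328 and 12583 normalized counts in XX wildtype and 17207 and 17094 in XX null libraries. In XY the same sum was 14873 and 19521 in wildtype and 15505 and 14439 in null libraries, and 7 of the 8 were lower (median -0.21). The XY direction rested on 1 library, since without XY wildtype replicate 2 the median was 0.025 with 5 of 8 higher. In XX the endothelial median was 0.45 without wildtype replicate 1 and 0.54 without replicate 2, with 8 of 8 higher in both cases. The gonadal somatic list was higher in 7 of 8 members in XX (median 0.34; sums 10386 and 10097 against 13048 and 12914) and lower in 8 of 8 in XY (median -0.50). In XX its median was 0.40 without wildtype replicate 1 and 0.25 without replicate 2. In XY it was -0.20 with 4 of 8 higher without null replicate 1, -1.002 without null replicate 2, -0.90 without wildtype replicate 1 and -0.26 without wildtype replicate 2. The germ cell list differed most between the XX wildtype libraries, with medians of 1.77 and -1.77 around their mean. Sums of germ cell markers were 2958 and 1437 in XX wildtype and 2757 and 2444 in XX null libraries. Kit alone gave 1070 and 1299 of these in XX wildtype and 2347 and 2080 in XX null libraries. Kit was most of each sum except that of XX wildtype replicate 1, so the sums of the wildtype pair did not follow it. Dppa5a, by contrast, had 543 and 46 in XX wildtype and 143 and 118 in XX null libraries. The interstitial list summed to 20310 and 24250 in XX wildtype and 25406 and 23028 in XX null libraries, and the neuron and neural crest list to 4840 and 4051 against 4159 and 3114. The erythroid sums were 184955 and 240823 against 119134 and 113016, the macrophage sums 2792 and 2463 against 2504 and 2139, and the mesonephros sums 2831 and 1838 against 2558 and 2675. Of 7 mesonephros markers measured in XX 6 were higher, with a median of 0.38. The mesonephros medians per library were 0.49 and -0.49 in XX wildtype and -0.014 and 0.47 in XX null libraries, so these groups overlapped. No marker of these lists was at 0 in every library. The part of these markers in the SOX values was not tested.

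**Figure D4:**
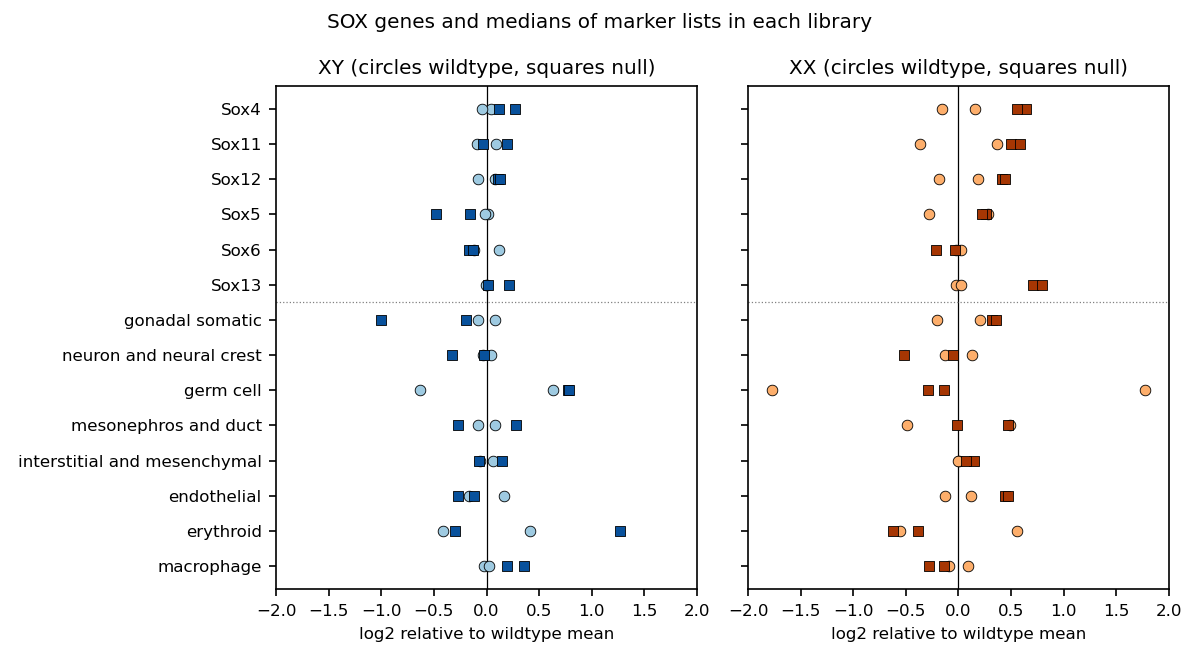
Each library relative to the wildtype mean of its sex (log2; circles wildtype, squares null) for the 6 genes and for the median of each marker list. In XX the null libraries of Sox13 lie at 0.71 and 0.79 and those of the endothelial list at 0.44 and 0.47, and the germ cell medians of the XX wildtype libraries lie furthest apart.

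Other SOX genes with measurable transcript gave a mixed picture. Of the other 14 family members 9 were measured in XX, 5 of them higher and 4 lower with a median of 0.22, and 10 in XY, 3 higher and 7 lower with a median of -0.18. None passed the adjusted limma threshold in either sex. The list's XX median was 0.049 without wildtype replicate 1, 0.43 without wildtype replicate 2 and -0.017 without null replicate 1. Its XY median was 0.0010 without null replicate 2 and -0.062 without wildtype replicate 2. Sox18, Sox17 and Sox7, the SOXF genes known from vessel formation, passed neither by limma nor in the authors' deposited table. Sox18 had 231 and 276 normalized counts in XX wildtype and 406 and 396 in XX null libraries (log2 fold change 0.66), and in XY it had -0.16. Sox17 had 155.2 and 196.2 in XX wildtype and 291 and 224.3 in XX null libraries (0.55), and -0.28 in XY. Sox7 had 216.3 and 331.8 in XX wildtype and 377.7 and 312.2 in XX null libraries, so its groups overlapped (0.36), and it had -0.49 in XY. Sox9, the Sertoli cell factor that SOXD proteins assist in cartilage, had log2 fold changes of 0.47 in XX and -0.23 in XY. In XX it had 515 and 769 normalized counts in wildtype and 923 and 828 in null libraries. In XY it had 910 and 767 in wildtype and 1021 and 495 in null libraries, so the XY groups overlapped. Sry had -2.45 in XY (limma adjusted p = 0.69) and was at 0 in all XX libraries.

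Genes tied to SOXC and SOXD proteins in other tissues were read from lists chosen by background knowledge. In the SOXC list of 6 targets and partners none passed by limma in either sex, and the medians were 0.32 in XX and 0.04 in XY. The XX median was 0.057 without wildtype replicate 1 and 0.51 without replicate 2, and the XY median was 0.21 with 5 of 6 higher without null replicate 1. Pou3f2, a POU factor that pairs with SOX11 in neural cells, had 18 and 41 normalized counts in XX wildtype and 102 and 104 in XX null libraries, and it rose in the authors' deposited table (log2 fold change 1.78, DESeq2 adjusted p = 0.036). Dcx, a microtubule gene of young neurons, rose in XY in the authors' deposited table (1.10, DESeq2 adjusted p = 9.0e-05) and had -0.33 in XX by limma. Tead2 had 0.35 in XX and 0.09 in XY, Ezh2 had 0.29 and -0.02, and Tubb3 had -0.22 and -0.09.

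The SOXD list of 12 holds cartilage matrix genes, corepressors and globins. By limma 11 were measured in each sex, 6 higher and 5 lower in XX (median 0.08) and 7 higher and 4 lower in XY (median 0.12), with none past the adjusted threshold. The XX median was -0.016 without wildtype replicate 1 and 0.20 without replicate 2, and the XY median was -0.027 without null replicate 2 and 0.042 without wildtype replicate 1. The matrix genes Hapln1 and Col9a1 rose in XX in the authors' deposited table, by 0.83 and 0.94 on the log2 scale (DESeq2 adjusted p = 0.00074 and 0.0080). Acan, also a matrix gene, went the other way, with 32 and 37 normalized counts in XX wildtype and 16 and 18 in XX null libraries. Its limma log2 fold change was -0.98 in XX and -0.80 in XY. The matrix gene Col11a2 had 0.08 in XX and -0.10 in XY by limma. Col2a1, the classic target of SOX9 with SOX5 and SOX6, had 1670 and 3486 normalized counts in XX wildtype and 3513 and 3570 in XX null libraries, so 1 wildtype library was level with the null. Ccnd1, a cyclin that SOX6 can repress, fell in both sexes in the authors' deposited table, with log2 fold changes of -0.49 in XX (DESeq2 adjusted p = 0.012) and -0.49 in XY (DESeq2 adjusted p = 0.030). The embryonic globin Hbb-y, which SOX6 silences in later red cells, is also on the erythroid list. It fell in XX in the authors' deposited table (-1.11, DESeq2 adjusted p = 1.3e-19). By limma it had -1.11 in XX and 0.70 in XY (SE 0.49). Its XY groups overlapped, at 28298.5 and 43502 normalized counts in wildtype and 34426 and 94610 in null libraries. The summed erythroid markers were likewise lower in both XX null libraries.

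Profiles over the 8 libraries, each centred within its sex, were compared by their root-mean-square difference in log2 units, as a description. Among the members, Sox4 and Sox12 were the most alike pair at 0.09, followed by Sox11 with Sox12 at 0.12 and Sox4 with Sox11 at 0.13. Sox13 was nearer to Sox4 (0.13) than to its group partners Sox5 (0.30) and Sox6 (0.34). Over all named genes with a mean of at least 50 in both tables and at least the member's own spread, the nearest to Sox13 were Ahdc1 (0.05), Ecm1 (0.08) and Pcdhgb4 (0.08). Ahdc1 had 1306 and 1365 normalized counts in XX wildtype and 2271 and 2167 in XX null libraries. The nearest to Sox4 were Sh3pxd2b, Ptprf and Large (0.05 to 0.06), and to Sox11 Ly75, Col23a1 and Foxp4 (0.05 to 0.08). For Sox12 they were Smarcd1, a subunit of the SWI/SNF chromatin remodelling complex, Zc3h7b and Phactr4 (0.03 to 0.04). For Sox5 they were Dock9, Prex2 and Cgnl1 (0.05 to 0.10), and for Sox6 Nt5dc1, Vangl1 and Oxct1 (0.06 each). All these profiles share the same 8 libraries and their depth.

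The sequences before the start sites of Sox4 and Sox13 are shown because the authors' deposited table called them in XX. They come from the RefSeq promoter table (GRCm38.p6), minus strand, 5′ to 3′, up to the base before the GENCODE start, with CG dinucleotides in capitals, a motif that reads the same on both strands. Sox4 is given from chr13:28953714-28953949 and Sox13 from chr1:133424378-133424462.
Sox4: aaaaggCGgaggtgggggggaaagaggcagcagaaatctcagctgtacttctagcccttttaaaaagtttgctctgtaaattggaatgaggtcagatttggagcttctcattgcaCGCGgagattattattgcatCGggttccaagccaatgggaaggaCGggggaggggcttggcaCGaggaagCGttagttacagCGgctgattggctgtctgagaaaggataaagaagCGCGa
Sox13: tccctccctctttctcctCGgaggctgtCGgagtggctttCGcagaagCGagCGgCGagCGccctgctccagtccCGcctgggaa
Over the 250 bases before the RefSeq start, Sox13 held 31 CG dinucleotides, a number reached by 5.19% of the 32851 promoters of that table. The RefSeq start of Sox13 lies 165 bases inside its GENCODE span, so only the 85 bases printed above lie before both starts. Sox12 held 35 (2.97%), Sox11 17 (23.5%), Sox4 11 (35.6%) and Sox6 9 (40.3%), against a median of 6. Sox6 has 6 listed promoters, and its value is that of the nearest to its GENCODE start. The promoter listed for Sox5 held 3 (71.0%), but it lies 834871 bases from the GENCODE start of the gene and is not set beside the others.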

How the data were processed

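RNA of 8 libraries was analysed from tables deposited by the authors, and 0 value columns were left unmatched to a sample. Per the submitters' processing notes the tools were DESeq2 2.11.40.8 for the comparisons, featureCounts 2.0.8 for counting, STAR 2.7.11 for alignment and cutadapt 4.9. The files' gene spans match GRCm38. Settings for strand, multimapping and filters are not stated. Values used here are normalized counts (a signal), which the authors made by dividing gene counts by 1 size factor per library, separately for each sex. Nonzero values were whole multiples of 1 step in each library (tolerance 1e-06 of the value), which was read as 1 count to obtain depths. The authors' deposited DESeq2 tables hold per gene the log2 fold change with its standard error, the p-value raw and adjusted, and a Wald score that was not used. The headerless XX table was read in the XY column order, checked on its means.

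Limma 3.58.1 in R 4.3.3 was fitted to log2(normalized count + 1) with a variance trend, to genes with a mean of at least 10, within each sex (genotype only) and over all 8 libraries for the difference between sexes. Benjamini-Hochberg adjustment ran over all genes tested, with a threshold of 0.05. Fold changes on this scale understate those of low genes. With 2 against 2 libraries an exact permutation test cannot go below 0.333 (2-sided), so none was used. The code was tested on simulated data. Alternatives covered pseudocount, filter, scaling, a replicate block, 1 joint fit and leaving out each library. The 6 members are always named, with Kdm6b. Any measured member of the SOX, target and partner lists could be named, with up to 2 examples per marker list and the 3 genes nearest to each member. The members and all 12 lists (102 genes, all matched) were chosen with earlier results of these data known.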

Additional observations from a re-analysis of the deposited data

How the results depend on the processing

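Of 216 values of the 6 genes recomputed under alternatives, 201 kept their direction and their side of the limma threshold. The count says little of stability, because changing the filter, the replicate block or the joint fit leaves the estimates unchanged by design. No member passed in the main fit, so a change of side could only be a gain. The number of genes limma called, 0 in each comparison, became 1 in XY after rescaling to the upper quartile and 10 in XX with all 8 libraries in 1 fit. Leaving out 1 library in turn gave 0 to 2 calls in XY, 0 to 3550 in XX (621 without wildtype replicate 1, 3550 without wildtype replicate 2, 0 without either null library) and 0 to 43 for the difference, on the assumption that the lone library of a group varied like the others. The log2 fold changes in XX then ran from 0.45 to 0.75 for Sox4, 0.18 to 0.90 for Sox11, 0.25 to 0.61 for Sox12, -0.036 to 0.52 for Sox5 and 0.71 to 0.79 for Sox13. Sox4 and Sox13 passed without either of the XX wildtype libraries, and Sox11, Sox12 and Sox5 only without replicate 2. Sox11 in XY ran from -0.032 to 0.20, and was -0.0071 without XY wildtype replicate 2. The difference of Sox6 between sexes ran from -0.14 to 0.10, and was 0.042 after rescaling to the same total and 0.080 to the upper quartile. The cause of these changes was not tested. With the replicate number as a block, limma called 23 genes in XY and 2 in XX, and no call of the 6 genes changed. The labels do not say that the numbers pair the libraries, and same-numbered deviations correlated at 0.24 in XY and -0.06 in XX, so the pairing is not used. With 2 libraries per group, differences within the spread of the XX wildtype pair were not detectable.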
